A study of Drosophila melanogaster with 24 samples.

Results

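Hemolymph, the fluid that fills the open circulation of the fly, was compared with body tissue of the same age by small RNA sequencing. Drosophila melanogaster labelled male and 2 days old were used, and the labels put 4 libraries in young hemolymph and 4 in young body. These 8 libraries were chosen by their labelled tissue and age out of 24. The other groups hold the same compartments at 25 days, with 8 libraries each, and enter only where the young difference is set against the old one. Old libraries 5 to 8 of both compartments carry an R in place of the O of their titles in a further label, which is not explained. They were pooled with old libraries 1 to 4, and the comparison of ages was also run on either set alone. The sources used here do not give the strain, any treatment or the number of flies per library. RNA was extracted from hemolymph with a serum and plasma version of the miRNeasy kit and from body with the standard version, so kit and compartment cannot be told apart. No label states that the libraries came from separate pools of flies, so the p-values reflect a spread between libraries that may be technical.

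MicroRNAs are cut from hairpin precursors, whose 5p and 3p arms each can give a mature strand. In most hairpins the strand of the major arm is kept in an Argonaute protein and silences messenger RNAs, and the strand of the minor arm is mostly degraded. Hemolymph bathes all organs and carries circulating immune cells called hemocytes, and extracellular microRNAs are known to travel in vesicles or bound to proteins. In bulk material of this kind, a lower level can come from fewer cells of a type or from less of the microRNA per cell, and these cannot be told apart.

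All mature microRNAs listed were examined. Of 466 mature names, 287 had at least 1 count in the 8 young libraries and 179 had none. The total microRNA count ran from 180182 to 242935 in young body and from 56010 to 275974 in young hemolymph, where libraries 3 and 4 were the shallowest at 56010 and 69239. A filter on low counts left 115 microRNAs, which held 99.8% of the counts. Levels are given as CPM, the counts scaled to 1000000 microRNA counts per library, in the order of libraries 1 to 4 wherever 4 values follow each other.

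Libraries of 1 group were not all alike. Across microRNAs, which are not independent replicates, log levels of young body libraries 3 and 4 correlated at r = 0.995. Library 2 correlated with these at 0.942 and 0.945 and with library 1 at 0.931, and library 1 with libraries 3 and 4 at 0.811 and 0.816, so that body library 1 stood apart. In hemolymph libraries 1 and 2 correlated at 0.976 and libraries 3 and 4 at 0.964, against 0.870 to 0.941 for the pairs between them. The follicle cell microRNA miR-318-3p was counted at 64.0, 6659.9, 68137 and 54850.1 CPM in body libraries labelled male, and at 11.8, 36.2, 982 and 1906 CPM in hemolymph. Another ovary microRNA, miR-989-3p, which guides border cell migration in the egg chamber, was at 2418, 5322, 3542 and 4236 CPM in body, without so wide a range. The labels name no batch, and the part of these differences in the results below was not tested beyond leaving out libraries 1 and 2, libraries 3 and 4 or single libraries.

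**Figure D1:**
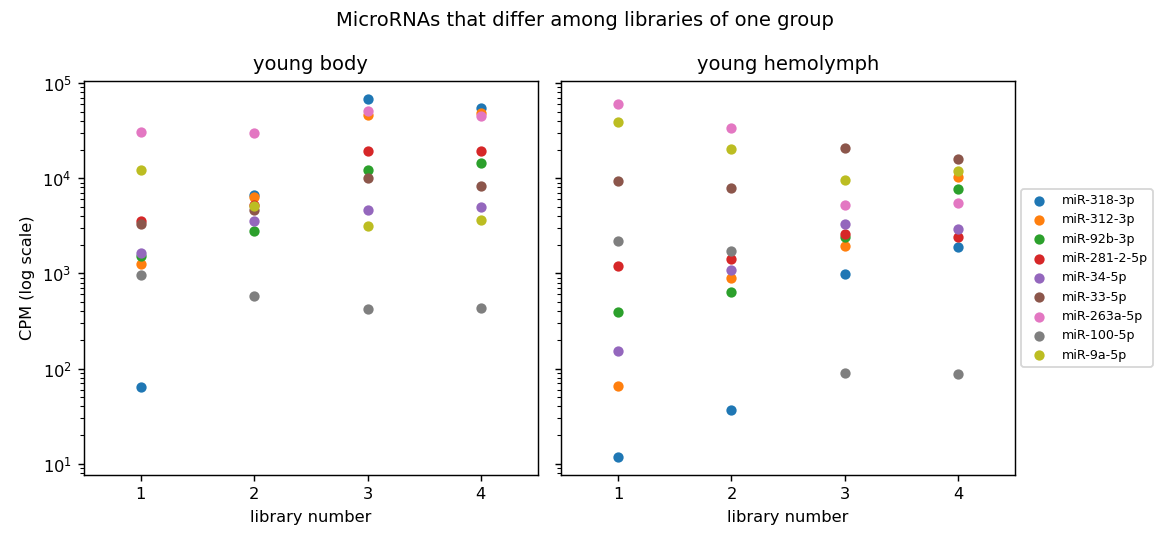
Levels in CPM (log axis) of 9 microRNAs in each young body library (left) and each young hemolymph library (right), numbered 1 to 4. Points of the ovary microRNA miR-318-3p and of miR-312-3p lie lower in libraries 1 and 2 than in libraries 3 and 4 of both compartments, and those of miR-100-5p lie higher.

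Hemolymph held fewer kinds of microRNA than body, in a less even mixture. After every library was thinned to 56010 counts, 140 ± 7.11 microRNAs were detected in hemolymph and 163 ± 3.25 in body (SD, n = 4 each). The 10 leading microRNAs took 80.8% ± 0.508 of counts in hemolymph and 75.0% ± 3.76 in body. The effective number of microRNAs, the exponential of the Shannon entropy, was 16.3 ± 1.05 in hemolymph and 22.3 ± 2.66 in body. Minor arms took 4.54% ± 0.545 of the counts of hairpins with both arms listed in hemolymph and 2.51% ± 0.414 in body. In these 4 measures the groups did not overlap, and each gave an exact two-sided permutation p of 0.0286, the smallest that 4 against 4 libraries allow, and an adjusted p of 0.0357 over the 5 measures tested. The share of the single leading microRNA, 23.0% ± 5.75 in hemolymph and 21.5% ± 3.44 in body, overlapped between groups (exact permutation p = 0.657, unchanged by adjustment). Without the ovary and miR-310 family microRNAs all 4 calls were lost, but the sizes changed unequally. The difference in the share of the 10 leading shrank from 5.80 to 3.29 percentage points (adjusted p = 0.107, exact permutation test). That in the effective number shrank from -5.95 to -3.67 (adjusted p = 0.0952, exact permutation test). The difference in detected microRNAs went from -22.9 to -22.7 and that in minor arms from 2.04 to 1.86 percentage points. Their adjusted p was 0.0714 each in the same test, and the adjustment also depends on the p-values of the other measures. The loss of these calls thus does not show that they rest on the ovary microRNAs. With any 1 library left out, the smallest exact p is 0.0571 and the 4 adjusted values were 0.0714. The share on minor arms can also rise where a whole hairpin is more abundant. For mir-8 the minor arm took 4.79% of the hairpin in hemolymph and 4.41% in body (limma adjusted p = 0.833). The minor arm of mir-34, miR-34-3p (9038 CPM in hemolymph and 3261 in body), was the larger strand in every hemolymph library. The part of such hairpins in the difference was not tested.

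The leading microRNA differed between the compartments. In body it was miR-956-3p, encoded on dm6 chromosome 3L, 11773731 to 11773878, minus strand, outside any gene annotated on its strand, at 194151, 254143, 232287 and 179217 CPM. In hemolymph the same microRNA was at 819, 5540.4, 6052 and 7770.2 CPM. Every hemolymph library lay far below every body library, with a log2 fold change of -5.42 ± 0.72 (SE, edgeR adjusted p = 1.96e-04). The highest mean in hemolymph was that of miR-8-3p, the fly member of the miR-200 family and a regulator of insulin signalling in the fat body, at 143507, 173799, 268613 and 290544 CPM, against 67624, 67920.2, 96969.9 and 104390.1 CPM in body. It is encoded in an exon of a noncoding RNA on chromosome 2R, 16831432 to 16831518, plus strand. All hemolymph libraries were above all body libraries, libraries 3 and 4 highest in both, and the log2 fold change was 1.34 ± 0.34 (edgeR adjusted p = 0.00704). With the ovary and miR-310 family microRNAs taken out of the table the fold change was 0.92 and the call was lost (edgeR adjusted p = 0.0522).

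Of the 10 most abundant microRNAs of each compartment, 7 were shared. The hemolymph set took 79.2% of hemolymph counts and 45.7% of body counts, and the body set took 72.7% of hemolymph and 72.6% of body counts. The microRNA with the next highest mean in hemolymph was miR-276a-3p, which acts in olfactory memory through a dopamine receptor. It stood at 183450.4, 178926, 139832 and 168157 CPM in hemolymph and 77775, 58352, 41069 and 48079 CPM in body, without overlap (1.52 ± 0.29, edgeR adjusted p = 0.00161). It led hemolymph libraries 1 and 2, and miR-8-3p led libraries 3 and 4. The cell death and fat metabolism regulator miR-14-3p was at 100031, 74717, 58847 and 69975 CPM in hemolymph and 40155, 26024, 23804 and 27896 CPM in body (1.29 ± 0.27, edgeR adjusted p = 0.00289). It too did not overlap between groups. The apoptosis regulator miR-11-3p, from an intron of the cell cycle gene E2f1, reached 25878 ± 3448 CPM in hemolymph and 10941 ± 3486 in body (1.19 ± 0.30, edgeR adjusted p = 0.00699). That call was lost without young hemolymph library 2 (0.91, edgeR adjusted p = 0.0726) and without the ovary and miR-310 family microRNAs (0.79, edgeR adjusted p = 0.0847).

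Several abundant microRNAs did not pass the test. The growth microRNA bantam-3p was at 86639 ± 14533 CPM in hemolymph and 59125 ± 13648 in body (0.48 ± 0.26, edgeR adjusted p = 0.139), and its groups overlapped. For miR-184-3p, which acts in the female germline, the means were 108408 ± 33896 and 80112 ± 31905 CPM (0.40 ± 0.39, edgeR adjusted p = 0.39). The level of miR-317-3p, a regulator of Toll signalling, was 7679, 34521, 57311 and 45596 CPM in hemolymph against 46676, 113219, 59179.8 and 66524 CPM in body (edgeR adjusted p = 0.173). Hemolymph library 1 was the lowest of all, and only hemolymph library 3 reached the range of body. The sense organ microRNA miR-263a-5p was at 59947, 33913, 5231 and 5517 CPM in hemolymph and 30959, 29886, 50274 and 44996 CPM in body (-0.69 ± 0.72, edgeR adjusted p = 0.421). Hemolymph libraries 1 and 2 lay among or above the body values and libraries 3 and 4 far below them. Without libraries 1 and 2 of both groups its fold change was -3.17.

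**Figure D2:**
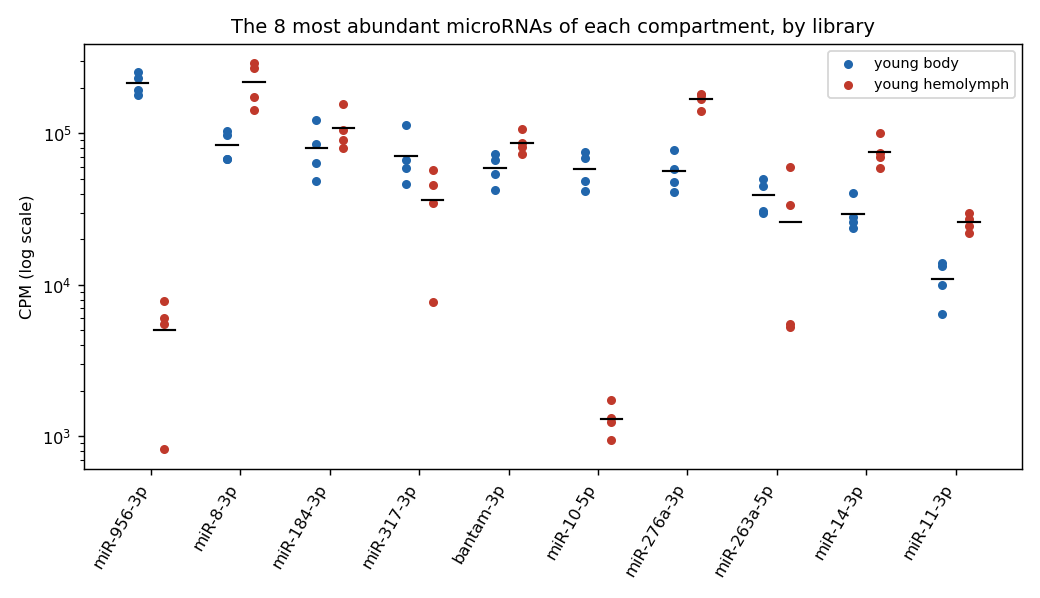
Level in CPM (log axis) of the 8 most abundant microRNAs of each compartment in every young body library (blue) and young hemolymph library (red), where the black line is the mean of 4. The points of miR-956-3p and miR-10-5p are far apart, those of miR-8-3p, miR-276a-3p, miR-14-3p and miR-11-3p are higher in hemolymph without overlap, and those of miR-184-3p, bantam-3p, miR-317-3p and miR-263a-5p overlap.

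Among the 115 microRNAs, edgeR's quasi-likelihood test with Benjamini-Hochberg adjustment at 0.05 called 74. Of these, 31 were higher in hemolymph (27%) and 43 lower (37.4%), or 64.3% in either direction. At an unadjusted p below 0.05 there were 79. The levels of 28 lay wholly above body in hemolymph (24.3%) and those of 38 wholly below (33%). The median log2 fold change was -0.43. Among the 12 largest called changes in each direction, falls ran from -5.65 to -9.10 and rises from 1.64 to 4.31. A microRNA could pass the filter through 1 compartment alone, which favours a call toward that compartment. Each change is set against the other microRNAs of a library, and the amount per volume of hemolymph or per body was not measured. Scaling with RLE factors moved the median fold change by -0.16 and upper-quartile factors by 0.59. Under upper-quartile factors 41 were higher and 39 lower.

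**Figure D3:**
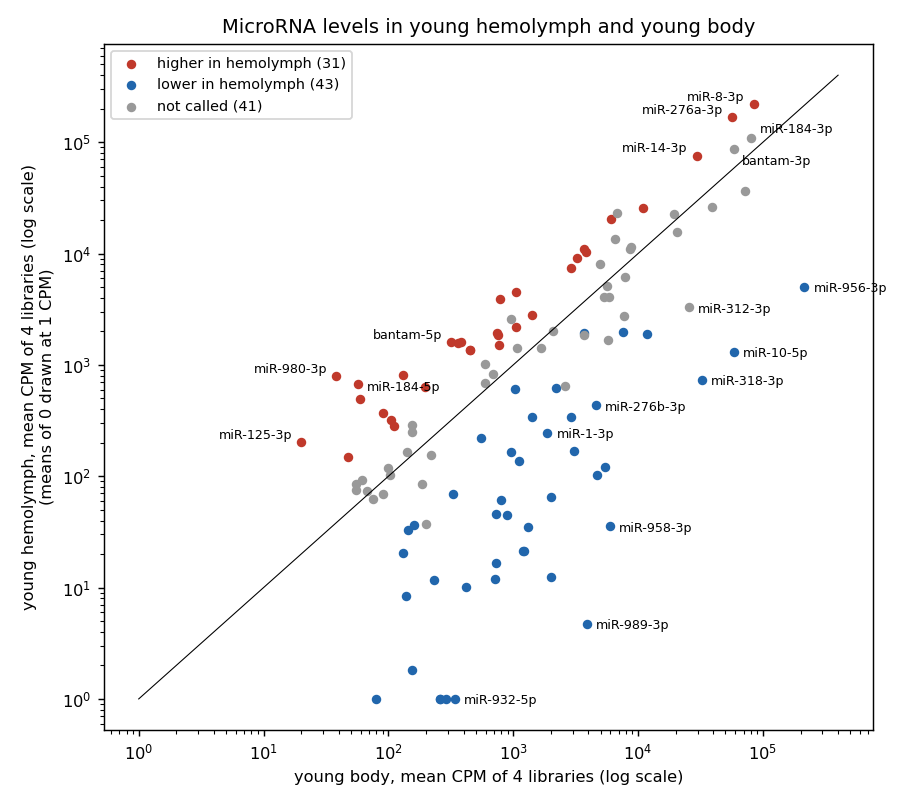
Mean level of each tested microRNA in 4 young body libraries (x, CPM, log axis) and 4 young hemolymph libraries (y, CPM, log axis), with the line of equal levels. The 31 red points are higher and the 43 blue points lower in hemolymph, and means of 0 are drawn at 1 CPM.

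**Figure D4:**
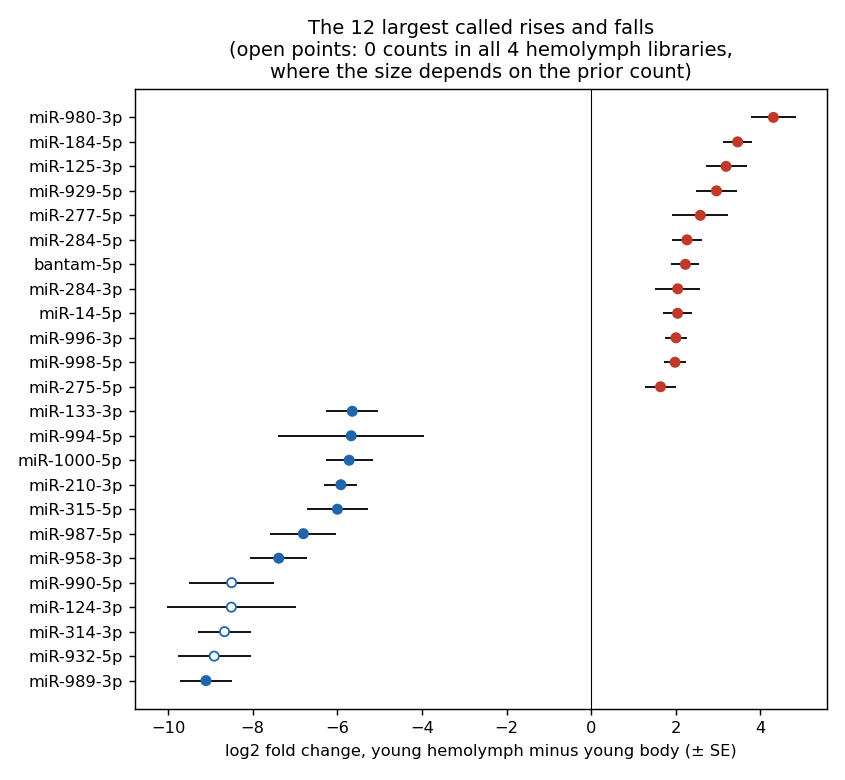
Log2 fold change (x, young hemolymph minus young body, ± SE of the fit) of the 12 largest called rises (red) and falls (blue) with a mean of at least 100 CPM. Rises reach 4.31 for miR-980-3p and falls reach -9.10 for miR-989-3p, and open points mark microRNAs with 0 counts in all 4 hemolymph libraries.

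MicroRNAs of the head and nervous system moved in both directions. Of 16 listed, 15 were tested, 5 were higher and 9 lower, beside 27% higher and 37.4% lower over all tested. Members scarce in 1 compartment passed the filter through the other, which favours a call toward that other compartment. These counts are thus a description. The median log2 fold change was -3.94 beside -0.43 over all tested. By share of counts the list was larger in hemolymph, at 17.5% ± 1.72 against 7.32% ± 1.93 in body. Of these, miR-276a-3p alone took 16.8 and 5.63%. The neuronal microRNA miR-124-3p stood at 502, 361, 96.1 and 69.98 CPM in body and miR-932-5p, from an intron of the synaptic adhesion gene Nlg2, at 582, 299.7, 248 and 239 CPM. Neither had a single count in hemolymph. Set against a floor of 3 counts over the hemolymph group (5.25 CPM), miR-124-3p was at least 45.9-fold lower and miR-932-5p at least 63.6-fold lower. With both at these bounds the list's median was the same. Without libraries 1 and 2 of both groups miR-124-3p did not pass the filter.

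The photoreceptor microRNA miR-210-3p was at 961, 882, 1422 and 1552 CPM in body and 17.7, 18.1, 35.7 and 14.4 CPM in hemolymph, a log2 fold change of -5.92 ± 0.39 (edgeR adjusted p = 8.14e-06). All 4 hemolymph values rest on few counts, and miR-210-3p passed the filter through body, which favours a fall. The fold change was -5.72 ± 0.55 for miR-1000-5p, which controls a glutamate transporter of synaptic vesicles, -6.80 ± 0.78 for miR-987-5p, -6.00 ± 0.72 for miR-315-5p and -3.94 ± 0.46 for miR-137-3p. The most abundant of this set in body after miR-276a-3p, miR-957-3p, was at 5065, 4529, 4195 and 5100.1 CPM there and at 53.0, 112, 89.3 and 159 CPM in hemolymph (-5.55 ± 0.44, edgeR adjusted p = 1.56e-05). For none of these did the groups overlap.

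The largest rise of all also came from this list. The memory suppressor miR-980-3p, encoded on chromosome X, 280172 to 280269, minus strand, was at 412, 525, 1214 and 1011 CPM in hemolymph and 64.0, 38.9, 20.2 and 28.8 CPM in body (4.31 ± 0.53, edgeR adjusted p = 1.39e-04). The values are higher in hemolymph libraries 3 and 4 than in 1 and 2, and all lie above body. Body counts of miR-980-3p were too low to pass the filter, so it passed through hemolymph, which favours a rise. For miR-929-5p, from an intron of the complexin gene cpx, the levels were 229.7, 275, 803 and 664 CPM in hemolymph and 58.7, 72.1, 45.5 and 61.7 CPM in body (2.96 ± 0.49, edgeR adjusted p = 7.20e-04). This microRNA too needed its hemolymph counts to pass the filter. The synaptic microRNA miR-284-5p reached 3896 ± 1151 CPM in hemolymph and 779 ± 274 in body (2.26 ± 0.37, edgeR adjusted p = 6.23e-04). Like the other arm of its hairpin, miR-284-3p (2.05 ± 0.53), it rose, and neither overlapped between groups. A smaller rise was called for miR-190-5p (1.35 ± 0.33).

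The miR-276 pair went opposite ways. These hairpins lie on chromosome 3L, mir-276a at 10365228 to 10365325 and mir-276b at 10319785 to 10319883, both on the plus strand. While miR-276a-3p rose, miR-276b-3p fell from 6255, 4179, 3881 and 4182 CPM in body to 329.8, 413, 499.9 and 491 CPM in hemolymph (-3.46 ± 0.32, edgeR adjusted p = 3.94e-05). For each 100 counts of miR-276a-3p there were 8.34 ± 0.973 of miR-276b-3p in body and 0.265 ± 0.0769 in hemolymph (SD, n = 4 each), with no overlap. The 5p arms of both hairpins have equal counts in all 24 libraries, so their reads cannot be assigned to either, and part of the 3p reads may be shared as well. A like gap held for miR-31b-5p, at 4.72 ± 1.04 per 100 miR-31a-5p in body and 0.298 ± 0.135 in hemolymph. Its log2 fold change was -4.41 ± 0.44, whereas miR-31a-5p was not called (-0.43 ± 0.45).

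Of muscle microRNAs, most were low in hemolymph. Of 3 listed, 2 were lower and none higher, beside 37.4% lower over all tested, with a median of -2.95. The level of miR-1-3p, which drives muscle differentiation, was 2775, 2176, 1280.2 and 1280.2 CPM in body and 194, 366, 321 and 101 CPM in hemolymph (-2.95 ± 0.50, edgeR adjusted p = 7.23e-04). Its partner in muscle, miR-133-3p, was at 1316 ± 313 and 34.9 ± 28.7 CPM (-5.65 ± 0.62, edgeR adjusted p = 7.39e-05), and passed the filter through body, which favours a fall. Neither overlapped, and the third, miR-92b-3p, a regulator of Mef2, was not called (-1.49 ± 1.04). It was called without young hemolymph library 4, at -3.03.

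MicroRNAs of the homeotic gene clusters, which help to set segment identity, took a far smaller share of hemolymph than of body. All 3 tested of 5 listed were lower, beside 37.4% lower over all tested, with a median of -5.29. Together the 5 took 6.13% ± 1.52 of body counts and 0.195% ± 0.0400 of hemolymph counts, of which miR-10-5p alone took 5.86 and 0.131%. The most abundant, miR-10-5p, was at 75154, 68608, 48599 and 41879.5 CPM in body and 1319, 1728, 946 and 1242 CPM in hemolymph (-5.53 ± 0.40, edgeR adjusted p = 1.18e-05). The other arm of its hairpin, miR-10-3p, fell less (-1.89 ± 0.29, edgeR adjusted p = 4.70e-04). Both were without overlap, as was miR-993-3p (-5.29 ± 0.42). However, miR-993-3p had only 2, 3, 1 and 0 counts in hemolymph and passed the filter through body, which favours a fall.

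Gut microRNAs divided by hairpin. Of 6 tested, 3 were lower and none was higher, beside 37.4% lower over all tested, and the median was -1.68. Without libraries 1 and 2 of both groups 4 were lower and 1 higher. The 3 are the products of the mir-281 pair, which is strong in gut and Malpighian tubules, where miR-281-2-5p was at 3565, 5195, 19108 and 19449.6 CPM in body and 1184, 1413, 2607 and 2383 CPM in hemolymph (-2.68 ± 0.63, edgeR adjusted p = 0.00489). Body libraries 3 and 4 were the highest, and the groups did not overlap. Reads may be shared between the copies, which makes the single values uncertain. The cluster partners miR-275-3p (0.29 ± 0.34) and miR-305-5p (-0.20 ± 0.24) were not called.

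The ovary microRNAs that could be tested were low in hemolymph. All 9 of the ovary and early embryo list had a count but 3 passed the filter. These 3 were lower, beside 37.4% lower over all tested, with a median of -5.67. All 3 passed the filter through body, which favours a fall, so this count is a description. The list took from 0.258 to 8.11% of body counts and at most 0.222% of any hemolymph library. The level of miR-989-3p was 4.76 ± 5.79 CPM in hemolymph, 4 counts in all, against 3879 ± 1219 in body (-9.10 ± 0.60, edgeR adjusted p = 8.14e-06). The hairpins mir-994 and mir-318 lie next to each other on chromosome 3R, at 10408137 to 10408227 and 10408302 to 10408369 (plus strand). Their products miR-994-5p and miR-318-3p had log2 fold changes of -5.67 ± 1.73 and -5.50 ± 2.06 (edgeR adjusted p = 0.0184 and 0.0404). Body library 1 held little of either, and the standard errors are large. The call of miR-318-3p was lost without body libraries 3 or 4, or hemolymph libraries 1, 2 or 3, each left out singly, where it ran from -4.80 to -5.89 with adjusted p from 0.0535 to 0.0780 (edgeR).

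Of the 6 members of the miR-310 and miR-92 family, which share a seed and are abundant in ovary, 2 were lower (miR-310-3p and miR-92a-3p) and 4 were not called. Over all tested 37.4% were lower, and the median of the family was -2.82. For miR-312-3p the values were 1265, 6332, 46579.8 and 48597 CPM in body and 64.8, 899, 1946 and 10269 CPM in hemolymph (-2.96 ± 1.48, edgeR adjusted p = 0.108). Both groups were lowest in library 1 and highest in library 4, and they overlapped. Without hemolymph library 4 all 6 were called lower, without hemolymph library 1, 2 or 3 only 1 was, and without body library 3 or 4 none was. The count was 6 with voom or with the replicate block by library number, and 4 with all 24 libraries or without libraries 1 and 2 of both groups.

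Testis microRNAs could not be compared. Of 20 listed, 12 had a count and none passed the filter. Together they took 0.0103% ± 0.00290 of body counts and 0.0126% ± 0.00787 of hemolymph counts. The most abundant, miR-982-5p, had 0, 5, 8 and 9 counts in body and 22, 30, 2 and 2 in hemolymph.

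The list of fat body, insulin and lipid metabolism took its place in hemolymph mainly through miR-8-3p and miR-14-3p. All 8 listed were tested, 3 were higher (miR-278-3p, miR-14-3p and miR-8-3p) and none was lower, with a median of 0.72, beside 27% higher over all tested. Without the ovary and miR-310 family microRNAs 1 was higher, and under upper-quartile factors 5 were. Together the 8 took 35.1% ± 5.82 of hemolymph counts and 15.5% ± 2.12 of body counts, of which miR-8-3p alone took 21.9 and 8.42% and miR-14-3p 7.59 and 2.95%. The other strand of miR-8, miR-8-5p, rose by a like amount (1.40 ± 0.27, edgeR adjusted p = 0.00177). The insulin sensitivity regulator miR-278-3p was at 2823 ± 789 CPM in hemolymph and 1403 ± 591 in body (0.93 ± 0.34, edgeR adjusted p = 0.0391). It lost its call without body library 2, 3 or 4 or hemolymph library 1, 2 or 4, with fold changes from 0.73 to 0.98. The sterol regulator miR-33-5p, from an intron of SREBP, was at 9316, 7972, 20693 and 15887 CPM in hemolymph and 3304, 4645, 9938 and 8269.7 CPM in body (0.99 ± 0.46, edgeR adjusted p = 0.0843). Libraries 3 and 4 were high in both groups, and the groups overlapped. The amino acid metabolism regulator miR-277-3p was not called (0.19 ± 0.31).

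Growth and cell survival microRNAs gave 4 higher and 1 lower of 7 tested, with a median of 0.93, beside 27% higher and 37.4% lower over all tested. Without hemolymph library 2, or without the ovary and miR-310 family microRNAs, 2 were higher. Those higher were bantam-5p, miR-11-3p, miR-14-3p and miR-278-3p, and the lower was miR-263b-5p (-2.03 ± 0.42). From the let-7 complex, which times the remodelling of nerve and muscle at metamorphosis, 1 of 3 was higher, beside 27% over all tested. This was let-7-5p, at 11565, 8519, 4999 and 4463 CPM in hemolymph and 4387, 2886, 2237 and 2173 CPM in body (1.25 ± 0.38, edgeR adjusted p = 0.0185). Its groups did not overlap by a narrow margin, and without body library 3 or 4 or hemolymph library 1 or 2 the call was lost (0.97 to 1.21). Its neighbour miR-100-5p was at 2179, 1714, 89.3 and 86.7 CPM in hemolymph and 955, 583, 420.0 and 428 CPM in body (0.70 ± 0.92, edgeR adjusted p = 0.512). Hemolymph libraries 1 and 2 were above all body values and libraries 3 and 4 below them. For miR-125-5p, the last of the complex, the fold change was 1.34 ± 0.53 (edgeR adjusted p = 0.0521), and it was called without hemolymph library 3 or 4, where 2 of the 3 were higher.

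The age and lifespan list shares let-7-5p and miR-14-3p with the groups above, and these were its 2 higher members of 6 tested, with a median of 0.98, beside 27% over all tested. With body library 3 or 4 or hemolymph library 1 or 2 left out 1 was higher, and without libraries 1 and 2 of both groups 2 were higher and 2 lower, with a median of 0.13. Its member miR-34-5p, known for its role in the ageing brain, was at 153, 1091, 3339 and 2903 CPM in hemolymph and 1638, 3579.7, 4640.3 and 4952 CPM in body (-1.01 ± 0.80, edgeR adjusted p = 0.297). The groups overlapped, with hemolymph library 1 the lowest.

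Of microRNAs with known roles in hemocytes and immunity, 2 of 11 tested were higher (miR-8-3p and let-7-5p) and 3 lower, with a median of -1.78, beside 27% and 37.4% over all tested. The count moved with the processing, to 6 lower without hemolymph library 4, with voom or with all 24 libraries, and to 1 higher without body library 3 or 4 or hemolymph library 1 or 2. The largest difference was that of miR-958-3p, a regulator of Toll signalling, at 7621, 8913, 3173 and 4059 CPM in body and 11.8, 50.7, 35.7 and 43.3 CPM in hemolymph (-7.38 ± 0.67, edgeR adjusted p = 3.69e-05). Its passage of the filter rested on body, which favours a fall. The other falls were miR-7-5p (-2.32 ± 0.52), which acts in blood cell precursors, and miR-310-3p (-3.96 ± 1.41). The call of miR-310-3p was lost without body library 3 or 4 or hemolymph library 1, 2 or 3 (-3.40 to -3.81). The list holds no microRNA made by hemocytes alone, so the share of hemocyte RNA was not tested.

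The miR-2 and miR-13 family, which represses apoptosis genes, gave 2 higher and 1 lower of 6 tested, with a median of 0.39, beside 27% and 37.4% over all tested. The higher count was 1 under RLE factors and without body library 1, 3 or 4 or hemolymph library 2, 3 or 4, and 0 without the ovary and miR-310 family microRNAs. The higher were miR-11-3p and miR-308-3p (1.48 ± 0.52), the second of which lost its call without body library 1, 3 or 4 or hemolymph library 3 or 4 (1.06 to 1.45). The lower was miR-13b-3p at 1935 ± 232 CPM in hemolymph and 3708 ± 268 in body, without overlap (edgeR adjusted p = 0.00359). Under upper-quartile factors miR-13b-3p was not called (-0.40). Its relative miR-13a-3p had 12, 14, 5 and 3 counts in body and none in hemolymph. Of 2 microRNAs known from glia and extracellular vesicles, miR-184-3p and miR-274-5p (-0.29 ± 0.38), neither was called. Mirtrons, which are spliced from short introns, gave 1 lower (miR-1012-3p, -2.59 ± 0.63) of 3 tested out of 15, beside 37.4% lower over all tested. The smallest called change of all was that of miR-283-5p (-0.82 ± 0.30, edgeR adjusted p = 0.0391), which was lost without body library 3 or 4 or hemolymph library 1 (-0.70 to -0.82). It was -0.22 under upper-quartile factors (edgeR adjusted p = 0.589), and its call was also lost with no filter (-0.94) and without libraries 3 and 4 of both groups (-0.70). Next came miR-970-3p (0.92 ± 0.22), which was lost without hemolymph library 2 (0.72). It was also lost with no filter (0.85) and without the ovary and miR-310 family microRNAs (0.58).

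In all, 21 microRNAs had a count in every young body library and none in any young hemolymph library, and 0 had the reverse, in libraries of unequal depth, the shallowest with 56010 counts in hemolymph and 180182 in body. Of the 21, 5 passed the filter, which they could do through body alone, so their direction was given. They are miR-124-3p, miR-932-5p, miR-314-3p (at least 55.1-fold lower), miR-990-5p (at least 47.1-fold) and miR-993-5p (at least 15.1-fold). Of the other 16, miR-994-3p had the most counts in body, 92 over the group, a level at least 21.7-fold lower in hemolymph. At the other end miR-13b-1-5p had 4 counts in body, too few to set against 0.

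Products of neighbouring hairpins did not always move together. Of 13 groups of hairpins that lay within 10 kb on the same strand and had at least 2 hairpins tested, 2 held calls in both directions. In the mir-998 and mir-11 pair, inside the E2f1 intron (chromosome 3R, 21621879 to 21622571, minus strand), miR-998-5p (1.98 ± 0.26) and miR-11-3p rose and miR-998-3p fell (-2.10 ± 0.61). The fall there was thus that of 1 arm of mir-998, whose other arm rose. In the mir-9c, mir-306 and mir-9b group on chromosome 2L, miR-9b-3p rose (1.52 ± 0.56) and miR-306-5p fell (-2.10 ± 0.27). The call of miR-9b-3p was lost without body library 2 or any 1 hemolymph library (1.22 to 1.55). The other arm of its hairpin, miR-9b-5p, was not called (-0.12 ± 0.32). In the mir-283, mir-304 and mir-12 group (chromosome X, in an intron of Gmap), miR-12-5p fell from 3325, 4518, 2146 and 2305 CPM in body to 171, 228, 143 and 129.99 CPM in hemolymph (-4.21 ± 0.40), far more than miR-283-5p. There were 325 ± 181 counts of miR-12-5p per 100 of miR-283-5p in body and 29.3 ± 10.3 in hemolymph. The miR-279 and miR-996 pair, which share a target set in sensory neurons, rose together at miR-279-3p (1.49 ± 0.29) and miR-996-3p (2.00 ± 0.26).

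Strands of minor arms were prominent among the rises. The minor arm of a hairpin was taken as the arm with the lower mean level in the old libraries, which are not part of the comparison. Of 23 minor arms tested, 11 were higher and 4 lower (median 0.62), and of 80 major arms tested, 17 were higher and 34 lower (median -0.91). Of the 12 largest rises 7 were minor arms, and of the 12 largest falls 0. A minor arm that passed the filter through its hemolymph counts had to differ, so these counts are a description. By level, miR-184-5p stood at 972, 493, 625 and 592 CPM in hemolymph and 85.4, 33.3, 50.6 and 57.6 CPM in body (3.46 ± 0.34, edgeR adjusted p = 3.94e-05). Its partner miR-184-3p, which outnumbers it everywhere, was not called. The level of bantam-5p was 2391, 1377, 1785 and 838 CPM in hemolymph and 331, 394, 238 and 317 CPM in body (2.23 ± 0.33, edgeR adjusted p = 3.96e-04), again with a partner that was not called. Neither overlapped between groups. The others were miR-125-3p (3.19 ± 0.48), miR-277-5p (2.58 ± 0.66), miR-284-3p, miR-14-5p (2.04 ± 0.34) and miR-275-5p (1.64 ± 0.36). Without libraries 3 and 4 of both groups miR-277-5p was at 1.44 and not called.

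The ratio of both arms within a library does not depend on scaling and was tested on its own. Of 216 hairpins with both arms listed, 13 were left out because an arm is shared between hairpins, and 30 had enough counts. With limma 15 were called (50%), 12 of them toward the minor arm in hemolymph (40%) and 3 toward the major arm. A model of the counts called 14 and a filter of at least 10 counts of both arms together in each library called 12 of 21. These checks were added because the limma test called unchanged hairpins of low count in simulated data. All 3 fits called 12 hairpins (40%), 9 toward the minor arm (30%). Those were mir-10, mir-184, mir-306, mir-34, bantam, mir-9b, mir-277, mir-125 and mir-275, and mir-998, mir-9a and mir-282 went toward the major arm. Without body library 1 the limma count toward the minor arm was 7. A hairpin could pass the count filter of these fits through the hemolymph counts of its minor arm. The 3p strand of mir-125 had 4, 3, 5 and 4 counts in body and 47, 24, 7 and 22 in hemolymph. The counts toward the minor arm are thus a description.

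For mir-10 the 3p strand made up 36.7, 27.9, 36.1 and 28.9% of the hairpin's counts in hemolymph and 2.08, 2.44, 4.90 and 6.74% in body. All hemolymph values lay above all body values, and the log2 ratio of 5p to 3p changed by -3.67 ± 0.50 (limma adjusted p = 5.33e-04). The fall of the abundant 5p strand was thus larger than that of its partner. For mir-184 the 5p share was 1.06, 0.314, 0.586 and 0.732% in hemolymph and 0.0699, 0.0388, 0.104 and 0.0902% in body (limma adjusted p = 8.50e-04), small in both but without overlap. The 3p share of mir-306 was 14.5% ± 8.33 against 1.79% ± 0.926 (SD, n = 4 each, limma adjusted p = 0.00365), from 2 to 9 counts of that strand in each library. It was not called without libraries 3 and 4 of both groups.

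The minor arm could also be the larger of the pair in young flies. The 3p strand of mir-34 made up 95.2, 81.1, 81.8 and 82.2% of its counts in hemolymph and 68.9, 45.5, 36.2 and 43.3% in body. Hemolymph held mainly the 3p strand in every library, and body was more mixed (-2.77 ± 0.63, limma adjusted p = 0.00613). The hairpin mir-998 went the other way, with a 3p share of 22.7, 24.1, 0 and 9.09% in hemolymph and 78.8, 85.3, 69.8 and 75.3% in body (limma adjusted p = 7.93e-04). Its 5p strand led in every hemolymph library and its 3p strand in every body library. In the sensory organ microRNA mir-9a the 3p share was 2.98% ± 0.881 against 25.1% ± 11.7 (limma adjusted p = 7.93e-04). Body libraries 1 and 2 were at 33.7 and 36.6% and libraries 3 and 4 at 15.5 and 14.6%, all above the hemolymph values. Without overlap as well was bantam, whose 5p share was 1.77% ± 0.506 against 0.544% ± 0.0625 (limma adjusted p = 0.00869). A called change of mir-958 toward its 5p arm rested on 0 to 14 counts of an arm in each hemolymph library and was not called by the count model (edgeR adjusted p = 0.118).

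**Figure D5:**
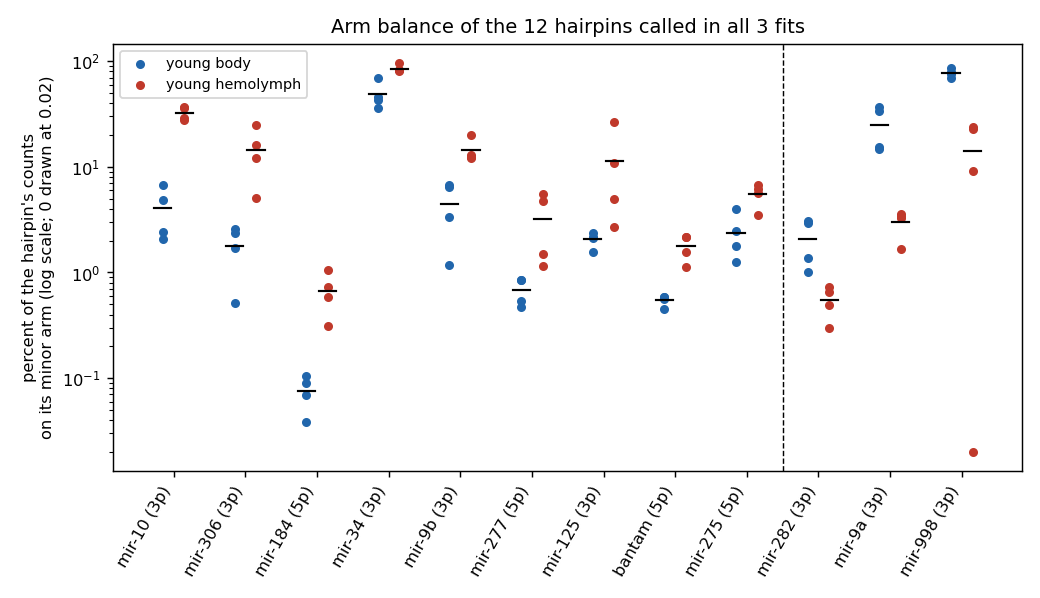
Percent of a hairpin's counts on its minor arm (log axis, the arm in brackets) in each young body library (blue) and young hemolymph library (red) for the 12 hairpins called in all 3 fits, where the black line is the mean of 4. Left of the dashed line are the 9 that shifted toward the minor arm in hemolymph, and right of it the 3 that shifted toward the major arm. A share of 0 is drawn at 0.02.

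The difference between compartments was set against that in old flies in a fit over all 24 libraries. The difference itself changed with age for 18 of 124 microRNAs tested (14.5%), 10 with a higher and 8 with a lower hemolymph to body ratio in young flies. The clearest was miR-275-3p, at 10888 ± 2455 CPM in young hemolymph and 8679 ± 2634 in young body (n = 4 each), and at 22562 ± 1783 in old hemolymph and 1942 ± 339 in old body (n = 8 each). The young minus old difference of the log2 fold changes was -3.10 ± 0.34 (edgeR adjusted p = 2.91e-07). For miR-957-3p it was -2.87 ± 0.48 (edgeR adjusted p = 1.42e-04), and its old hemolymph level was 522 ± 245 CPM against 103 ± 44.3 in young. The ovary microRNA miR-989-3p was at 133 ± 154 CPM in old hemolymph and 4.76 ± 5.79 in young, and in body at 3919 ± 592 in old and 3879 ± 1219 in young (-3.75 ± 0.93, edgeR adjusted p = 0.00782). These 3 were called with the old libraries numbered 1 to 4 alone and 5 to 8 alone.

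Other differences with age were less firm. A fitted difference of -4.94 ± 1.28 for miR-4919-3p (edgeR adjusted p = 0.0120) rests on 0 counts in young hemolymph and 13 in young body, so its size depends on the prior count. For miR-317-3p the value was -1.59 ± 0.46 (edgeR adjusted p = 0.0208), and it was not called without young body library 2 (-1.09) or with either set of old libraries alone (-1.72 and -2.03). For miR-10-3p it was 1.52 ± 0.37 (edgeR adjusted p = 0.00782), and it was not called without young body library 3 (1.19) or 4 (1.25), or with old libraries 1 to 4 alone (0.53).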

How the data were processed

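Single reads were sequenced on an Illumina HiSeq from TruSeq libraries, per the labels' protocols. Bowtie 1.0, edgeR and dm6 are named in the submitters' processing notes. How reads were trimmed, which annotation release was used and how reads matching several microRNAs were counted was not stated. The deposited counts are whole numbers per mature microRNA and hairpin, not normalized, in a table of 476 rows. The authors' RPM values matched the counts divided by column totals within 0.005 and were not used.

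Where a mature name stood under several hairpins, its most counted row was used and 10 rows were dropped. Counts were tested in R 4.3.3 with edgeR 4.0.16 (filterByExpr at a minimum count of 10, TMM factors, glmQLFit and glmQLFTest, Benjamini-Hochberg at 0.05) over the 8 young libraries, so the old libraries set neither scaling nor spread. Standard errors were derived from the fold change and its F statistic. Arm ratios were log2((5p + 0.5) / (3p + 0.5)) for hairpins with a mean of at least 5 counts of each arm, tested with limma 3.58.1. Both tests were tried on simulated counts first. Composition measures were compared with exact permutation tests (scipy 1.17.1), detection being the mean of 20 thinned draws. Alternatives covered scaling, filters, DESeq2 1.42.0, limma with sample weights, the replicate block, all 24 libraries, and leaving out libraries singly or in pairs. Without molecular identifiers, bounds cover counting error only. Hairpin positions and hosts are from RefSeq and Ensembl annotation of the same assembly, which matched 254 of the 255 hairpins kept. Families by shared seed were not tested and no mature sequences were used here.

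The 15 lists and the members were chosen with earlier results of these data known. MicroRNAs named were, by rule, the 12 largest called rises and falls averaging 100 CPM or more, the 8 most abundant of each compartment, up to 4 of each list, those absent from 1 compartment, the 6 largest arm and age changes, the 4 called nearest 0 and the 4 most abundant not called. Further members of lists, sister pairs and clusters were named after their values were seen.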

Additional observations from a re-analysis of the deposited data

Results flagged for a closer look

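In 5 of 137 sets of 4 libraries examined, 1 library lay farther from the other 3 than Dixon's 95% critical value allows, where chance flags about 1 in 20 sets. Young body library 3 held 3 of them, miR-286-3p at 663 CPM, miR-1010-3p at 744 CPM and miR-1003-3p at 70.8 CPM. The high value of miR-286-3p, an early embryo microRNA, came from 131 counts against 2, 4 and 9 in the other body libraries. Young body library 1 was high for miR-276b-3p (6255 CPM) and young body library 4 for miR-275-5p (300.5 CPM). No young hemolymph library was set apart in this way.

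The difference between hemolymph and body differed between young and old flies, by the interaction test of edgeR, for 18 microRNAs. The young minus old differences of the log2 fold changes below 0 were -3.10 for miR-275-3p, -2.87 for miR-957-3p, -1.22 for miR-281-1-5p, -3.75 for miR-989-3p, -4.94 for miR-4919-3p, -1.59 for miR-317-3p, -1.43 for miR-10-5p and -0.96 for miR-281-3p. Those above 0 were 1.43 for miR-996-3p, 1.37 for miR-2b-3p, 1.52 for miR-10-3p, 0.99 for miR-279-3p, 1.46 for miR-9c-5p, 0.94 for miR-284-5p, 1.48 for miR-316-5p, 1.12 for miR-9b-5p, 1.07 for miR-14-3p and 1.40 for miR-2c-3p.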

How the results depend on the processing

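The counts of 31 higher and 43 lower stayed within 1.5 times under all alternatives run, from 24 to 41 higher and 38 to 62 lower. Leaving out 1 library gave 25 to 36 higher and 39 to 51 lower. Same-numbered young libraries deviated from their group means with r of 0.641, 0.0800, 0.389 and 0.592, and not every library correlated best with its own number, so the numbers were not taken as pairs. The replicate block gave 31 higher and 49 lower, called all 6 of the miR-310 and miR-92 family lower, miR-312-3p among them (-3.48), and put 7 of the hemocyte and immunity list lower. Without libraries 1 and 2 of both groups 3 uncalled microRNAs were called with the opposite sign, miR-9c-5p at -0.77, miR-100-5p at -2.27 and miR-1010-3p at -1.30. The cause was not tested.

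For composition, the smallest exact p is 0.125 for the 4 pairs of the replicate block and 0.333 for 2 against 2 libraries, so no measure could pass there. Differences (hemolymph minus body) kept their direction in the 4 called measures, and none passed under the settings that follow, where settings with fewer libraries have a higher smallest p. In the order detected microRNAs, percent in the 10 leading, effective number and percent on minor arms, they were -22.7, 3.29, -3.67 and 1.86 without ovary and miR-310 family microRNAs (adjusted p from 0.0714 to 0.107), -22.9, 5.80, -5.95 and 2.04 in the replicate block (adjusted p = 0.156, exact permutation test), -18.7, 8.56, -8.46 and 2.64 without libraries 1 and 2, and -27.1, 3.03, -3.44 and 1.43 without libraries 3 and 4. With 1 library left out they ran from -25.8 to -20.8, 4.37 to 7.27, -7.00 to -4.84 and 1.79 to 2.22.

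Arm changes toward the major arm were 5 with all 24 libraries and 6 without libraries 1 and 2, those toward the minor arm 6 without libraries 3 and 4, and 7 to 12 with 1 library left out. Of the differences between ages, RLE factors gave 15 lower and DESeq2 17 lower, upper-quartile factors 19 higher, no filter 1 higher, old libraries 1 to 4 alone 2 higher, and old libraries 5 to 8 alone 2 higher and 3 lower. Leaving out 1 young library gave 2 to 17 higher (17 without body 1) and 5 to 15 lower. Tests of seed families and their alternatives were not run. Shallow hemolymph libraries 3 and 4 limit calls of low microRNAs.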
